A study of Mus musculus with 6 samples.

Results

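The super elongation complex and the proteins that hold its kinase in check were followed in the newborn mouse lens through 10 genes: Ell, Ell2, Ell3, Aff1, Aff4, Cdk9, Ccnt1, Ccnt2, Hexim1 and Eaf1. These were chosen by name, with earlier results of these data known. They were matched by gene symbol, and 9 of the 10 were found among the 13931 genes with expression values. Ell3 had no row under its symbol and was not analysed here. All 9 genes found had a mean level above 1 log2 CPM, as did 10529 genes in all. CPM is the count of reads on a gene relative to the library's total as adjusted by the authors' normalization, scaled to a common size.

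RNA was sequenced from whole lenses at postnatal day P0, in 3 Celf1cKO and 3 control libraries, each from its own pool of lenses. Celf1 encodes an RNA-binding protein that recognizes GU-rich elements in messenger RNAs and acts on their decay, splicing and translation. Celf1cKO mice carried a germline knockout allele of Celf1 (lacZKI), a floxed allele of Celf1 and the Pax6GFPCre transgene, which expresses Cre from the lens placode onward and also in the pancreatic lineage. The labels give the controls as Celf1lacZKI/+, which would leave them 1 intact allele, whereas the methods name Celf1flox mice without Cre unless otherwise noted. Which of these the controls were is unclear, and every difference given here is measured against them. Both groups were on a mixed background of C57BL/6J and FVB.

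RNA polymerase II pauses shortly after it starts transcription of most genes, and its release into elongation requires the kinase P-TEFb, a pair of Cdk9 and a cyclin T. The super elongation complex brings P-TEFb to the polymerase on a scaffold of an AFF protein, together with an ELL protein, which raises the rate of elongation, and an EAF protein, which binds and stimulates ELL. Outside the complex, much of P-TEFb is kept inactive by Hexim1 on the 7SK RNA. Of the ELL proteins, Ell2 is best known for its role in plasma cells, which secrete large amounts of a single class of protein, and fiber cells of the lens likewise devote much of their transcription to crystallins.

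Since Celf1 binds GU-rich RNA, the annotated 3′ UTRs of the members were searched on the sense strand for TGTTTGT, written in DNA letters, with overlapping matches counted. At least 1 match was present in the 3′ UTR of 29.6% of the 10292 genes above 1 log2 CPM that have an annotated 3′ UTR. Ell2 and Ccnt2 had 3 matches each, Aff1 had 2 and Hexim1 had 1, and there was none in Ell, Ell3, Aff4, Cdk9, Ccnt1 or Eaf1. The matches of Ell2, Hexim1 and Ccnt2 are shown because the first 2 genes were higher in Celf1cKO lenses in every library and Ccnt2 was not. Each line holds 30 bases of the + strand of GRCm38 with the match in capitals, at chr13:75771009-75771038, chr13:75771777-75771806 and chr13:75772328-75772357 for Ell2, at chr11:103118352-103118381 for Hexim1, and at chr1:127804349-127804378, chr1:127805704-127805733 and chr1:127806479-127806508 for Ccnt2.
Ell2 match 1: aacccccaactTGTTTGTtaatagaagcaa
Ell2 match 2: tgcttggttttTGTTTGTttctgtcaaatt
Ell2 match 3: tttaataaagaTGTTTGTcttcagcatcca
Hexim1 match 1: aataaatttaaTGTTTGTaaatgtaacagt
Ccnt2 match 1: gtgcatttaaaTGTTTGTtggcttgttgca
Ccnt2 match 2: gtgttgtttttTGTTTGTtgttttgttttt
Ccnt2 match 3: aagcagaggagTGTTTGTtttgtgggagcc

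The matches of Ell2 began 224, 992 and 1543 bases into a 3′ UTR of 1568 bases. This is 1.91 matches per kilobase, at percentile 96.9 of the genes with an annotated 3′ UTR above 1 log2 CPM. The 3′ UTR of Ccnt2 was longer, at 4502 bases, and held 0.666 matches per kilobase. Of the 30 bases around each match, 12, 24 and 16 were G or T in Ell2, 22, 30 and 21 in Ccnt2, 26 and 23 in Aff1 and 16 in Hexim1. The longer motif TGTTTGTTT, which contains the shorter one, was found once each in Ell2 and Ccnt2 and in both matches of Aff1, against 11.04% of genes with at least 1. Aff4, with 6315 bases, had the longest 3′ UTR among the members and no match. The map of the 3′ UTRs sets these positions side by side. A match is a description of the letters and not a binding site.

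**Figure D1:**
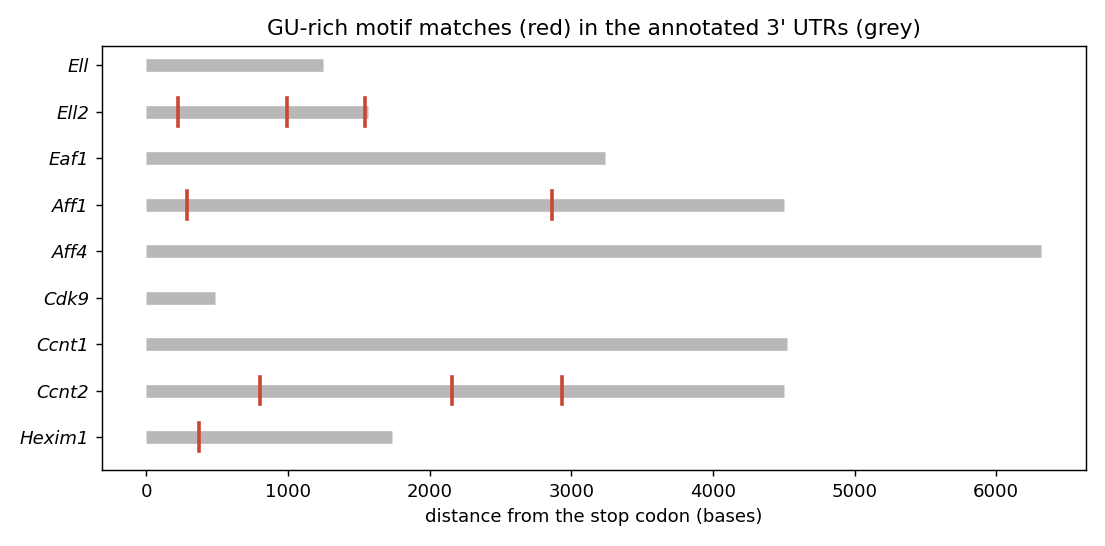
Matches to TGTTTGT (red ticks) along the annotated 3′ UTRs (grey bars) of the 9 members with expression values, with the distance from the stop codon in bases on the horizontal axis. The 3 matches of Ell2 fall within 1568 bases and those of Ccnt2 within 4502 bases, while the 6315 bases of Aff4 hold none.

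Reads on genes numbered between 40694454 and 44387151 per library, and between 318 and 50157 of them fell on each member. In log2 CPM, Celf1 itself stood at 9.95, 9.94 and 9.34 in the controls, listed by library number, and at 8.93, 7.66 and 7.83 in the Celf1cKO lenses. The fall amounted to a log2 fold-change of -1.60 (SE, the standard error, 0.335, adjusted p = 0.0269, limma with Benjamini-Hochberg adjustment over all 13931 genes). Celf1cKO library 1 kept the highest Celf1 level of its group. Crystallin genes took 45.8 to 46.9% of the reads in control libraries and 34.7 to 38.5% in Celf1cKO libraries, and the summed level of 4 of 5 fiber cell markers (Lim2 had no row) ranged from 2.48e+05 to 2.8e+05 CPM in controls and from 1.99e+05 to 2.1e+05 CPM in Celf1cKO. The 3 lens epithelium markers summed to 304 to 342 CPM in controls and 117 to 274 CPM in Celf1cKO, and the 4 endothelium markers to 57.7 to 77.5 CPM and 7.22 to 76.1 CPM. The sums of the retina, pigment epithelium, cornea and skin, red blood cell, leukocyte and mesenchyme markers were at most 14.7 CPM in any library. The part of these shifts in the results for the members was not tested. In whole lenses, fewer cells of a type and less RNA per cell cannot be told apart.

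The calls required an adjusted p under 0.05, a log2 fold-change beyond 0.58 up or down, and a mean level above 1 log2 CPM. Ell2 and Aff4 were called higher in Celf1cKO lenses, so that 2 of 9 members were called higher and 0 lower, where 6.21% of the 10529 expressed genes were called higher and 3.38% lower. The study had already reported Ell2 as elevated when the members were chosen, so these counts are not independent of the data. The adjusted p was also under 0.05 for Eaf1, which was lower by less than the fold-change cut-off, and 14.5% of expressed genes had such a p. The Celf1cKO libraries lay entirely above the controls for 3 members, Ell2, Aff4 and Hexim1, and entirely below them for 1, Eaf1, against 23.2% and 16.9% of expressed genes. The groups overlapped for Ell, Aff1, Cdk9, Ccnt1 and Ccnt2. The median log2 fold-change of the 9 members was 0.07, beside 0.01 for all expressed genes. The plot by library shows each of these values.

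**Figure D2:**
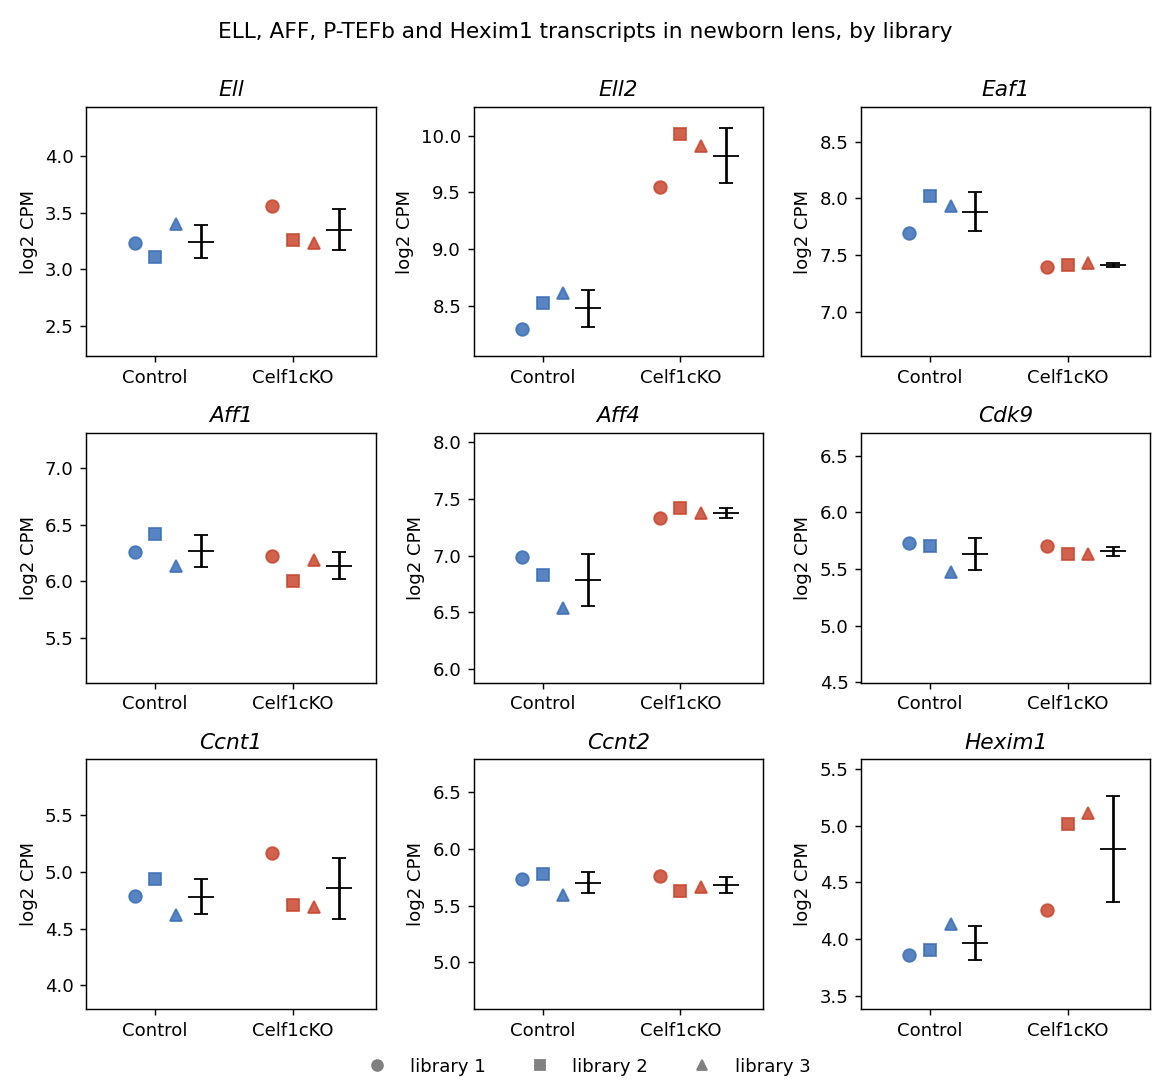
Level of the 9 members in log2 CPM (vertical axes, each with its own range) in the 3 control (blue) and 3 Celf1cKO (red) libraries, with the mean and SD of each group as black bars. Ell2, Aff4 and Hexim1 are higher in every Celf1cKO library than in any control, Eaf1 is lower in every Celf1cKO library, and the groups overlap for the other 5.

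Among the ELL proteins, which act directly on the elongating polymerase, Ell2 rose in Celf1cKO lenses. Ell2 (ENSMUSG00000001542, chr13:75706757-75772364, + strand) had levels of 8.30, 8.52 and 8.61 log2 CPM in the controls, in order of library number, and of 9.55, 10.01 and 9.91 log2 CPM in the Celf1cKO lenses. All 3 Celf1cKO libraries were above all controls, and the lowest of them exceeded the highest control by 0.94. The means were 8.48 ± 0.16 and 9.82 ± 0.24 log2 CPM (SD, n = 3 each), a log2 fold-change of 1.35 (SE 0.144, 95% interval 1.01 to 1.68, adjusted p = 0.00888, limma with Benjamini-Hochberg adjustment). On the linear scale this was 2.54-fold, with an interval of 2.01 to 3.21, from 357 ± 39.4 CPM to 913 ± 147 CPM (SD, n = 3 each). Between 12033 and 15402 reads stood behind the control values and between 32146 and 50157 behind the Celf1cKO values. Among the 10529 expressed genes Ell2 was rank 30 by p and rank 86 by fold-change. Its mean log2 CPM, not corrected for length, was at percentile 98.9 of them. Within the Celf1cKO group, library 1 had the lowest Ell2 and the highest Celf1. That library also kept the largest crystallin share of its group, at 38.5% of reads. Leaving it out raised the number of genes called from 1010 to 1879. A relation of Ell2 to the level of Celf1 was not tested.

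The rise of Ell2 did not depend on a single library for its size, but its adjusted p did. When the libraries were left out one at a time, the log2 fold-change of Ell2 lay between 1.25 and 1.48. The adjusted p (limma) was above the threshold without control library 2, at 0.0512, and without Celf1cKO library 3, at 0.0607, and under it in the other 4 fits. Without either of those libraries only 1 gene was called over all genes, against 1010 with all libraries.

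Ell (ENSMUSG00000070002, chr8:70539457-70592858, + strand), the founding member of the family, was expressed at a far lower level, with 3.05 CPM per kilobase of exon in controls against 36.4 for Ell2. Its values were 3.23, 3.10 and 3.40 log2 CPM in control libraries and 3.56, 3.26 and 3.23 log2 CPM in Celf1cKO libraries. The highest value was in Celf1cKO library 1 and the lowest in control library 2, and the groups overlapped. The log2 fold-change was 0.11 (95% interval -0.26 to 0.47, adjusted p = 0.685, limma with Benjamini-Hochberg adjustment), so that a change of up to 1.38-fold upward lay within the interval. Ell3 (ENSMUSG00000027246) lies at chr2:121439010-121444278 on the - strand, and 65.6% of its exon bases are shared with Serinc4 on the same strand.

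Per kilobase of exon, Ell2 made up 91.4, 93.1 and 92.2% of the sum of Ell and Ell2 in control libraries and 95.3, 97.2 and 97.0% in Celf1cKO libraries. The share was higher in every Celf1cKO library, with means of 92.2 ± 0.867% and 96.5 ± 1.05% (SD, n = 3 each) and a difference of 4.24 percentage points (p = 0.1 in a two-sided exact permutation test, which cannot go lower with 3 libraries against 3). With the length of the longest transcript in place of all exons the difference was 2.36 percentage points.

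Eaf1, which binds ELL proteins and stimulates their activity, was lower in Celf1cKO lenses. Eaf1 (ENSMUSG00000021890, chr14:31494399-31509858, + strand) had 7.69, 8.02 and 7.93 log2 CPM in control libraries and 7.39, 7.42 and 7.43 log2 CPM in Celf1cKO libraries. Every Celf1cKO value was below every control, and the Celf1cKO libraries lay within 0.03 of each other. The means were 7.88 ± 0.17 and 7.41 ± 0.02 log2 CPM (SD, n = 3 each), a log2 fold-change of -0.47 (SE 0.0992, 95% interval -0.70 to -0.24, adjusted p = 0.0275, limma with Benjamini-Hochberg adjustment). The level in Celf1cKO was thus 72.1% of that in controls, a change short of the fold-change cut-off. The adjusted p (limma) was above the threshold without control library 2 (0.0931) or 3 (0.0777) and without Celf1cKO library 2 (0.0820) or 3 (0.114). When libraries were scaled by their total reads the log2 fold-change was -0.24 and the adjusted p 0.104. Of the exon bases of Eaf1, 2.53% overlap Mettl6 on the opposite strand.

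Of the scaffold proteins Aff1 and Aff4, which hold P-TEFb and ELL together, Aff4 was called higher and Aff1 did not pass the test. Aff4 (ENSMUSG00000049470, chr11:53350833-53421830, + strand) had 6.98, 6.83 and 6.54 log2 CPM in control libraries and 7.33, 7.42 and 7.37 log2 CPM in Celf1cKO libraries. Every Celf1cKO library was above every control, the closest being control library 1, and the controls were spread over 0.44 against 0.09 among the Celf1cKO libraries. The means were 6.79 ± 0.23 and 7.38 ± 0.04 log2 CPM (SD, n = 3 each), a log2 fold-change of 0.59 (SE 0.119, 95% interval 0.31 to 0.87, adjusted p = 0.0242, limma with Benjamini-Hochberg adjustment), or 1.51-fold. This lies just past the cut-off of 0.58, and the call ended at 0.56 with the libraries centred on their medians, at 0.52 after quantile normalization and at 0.57 when the scaling left out crystallin genes. The adjusted p was 0.0715 without the variance trend, and leaving out control library 3 gave a log2 fold-change of 0.47. Without control library 2 or Celf1cKO library 2 or 3 the adjusted p (limma) was 0.0776, 0.0756 and 0.104.

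Aff1 (ENSMUSG00000029313, chr5:103692374-103855322, + strand) had 6.26, 6.42 and 6.14 log2 CPM in control libraries and 6.23, 6.00 and 6.19 log2 CPM in Celf1cKO libraries. The groups overlapped, with a log2 fold-change of -0.13 (95% interval -0.38 to 0.12, adjusted p = 0.445, limma with Benjamini-Hochberg adjustment). The log2 CPM ratio of Aff1 to Aff4 within a library, not corrected for length, was -0.73, -0.42 and -0.40 in controls and -1.105, -1.42 and -1.18 in Celf1cKO. It was lower in every Celf1cKO library than in any control, and its group difference was -0.72 (exact permutation p = 0.1, and 0.14 after adjustment over 7 ratios between members).

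The components of P-TEFb overlapped between the groups. Cdk9 (ENSMUSG00000009555, chr2:32705784-32713076, - strand), the kinase, ranged from 5.47 to 5.72 log2 CPM in controls and from 5.63 to 5.70 in Celf1cKO, with a log2 fold-change of 0.02 (95% interval -0.21 to 0.25, adjusted p = 0.902). Ccnt1 (ENSMUSG00000011960, chr15:98538689-98570923, - strand) and Ccnt2 (ENSMUSG00000026349, chr1:127774164-127808061, + strand) encode the cyclins that activate it. Ccnt1 ranged from 4.62 to 4.94 log2 CPM in controls and from 4.69 to 5.16 in Celf1cKO, with a log2 fold-change of 0.07 (95% interval -0.30 to 0.44, adjusted p = 0.796). Ccnt2 ranged from 5.60 to 5.78 log2 CPM in controls and from 5.63 to 5.76 in Celf1cKO, with a log2 fold-change of -0.02 (95% interval -0.23 to 0.19, adjusted p = 0.916, all limma with Benjamini-Hochberg adjustment). The upper bounds correspond to 1.19-fold for Cdk9, 1.36-fold for Ccnt1 and 1.14-fold for Ccnt2, so that changes of the size measured for Ell2 lay outside all 3 intervals.

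Hexim1 (ENSMUSG00000048878, chr11:103116231-103119725, + strand), a gene of 1 exon whose protein inhibits P-TEFb, was higher in every Celf1cKO library without passing the threshold. Its values were 3.86, 3.91 and 4.14 log2 CPM in control libraries and 4.26, 5.01 and 5.11 log2 CPM in Celf1cKO libraries. Celf1cKO library 1 lay only 0.12 above the highest control, while the other 2 lay well above all controls. The means were 3.97 ± 0.15 and 4.79 ± 0.47 log2 CPM (SD, n = 3 each), a log2 fold-change of 0.83 (SE 0.228, 95% interval 0.29 to 1.36, adjusted p = 0.0577, limma with Benjamini-Hochberg adjustment). When the fit was blocked by replicate number, limma gave an adjusted p of 0.0278 and Hexim1 was called. Without Celf1cKO library 1 the log2 fold-change was 1.09 and the adjusted p 0.00356 (limma). That gain was not particular to Hexim1, since this fit called 1879 genes in all, against 1010 with all libraries. The fold-change plot gives the interval of each member.

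**Figure D3:**
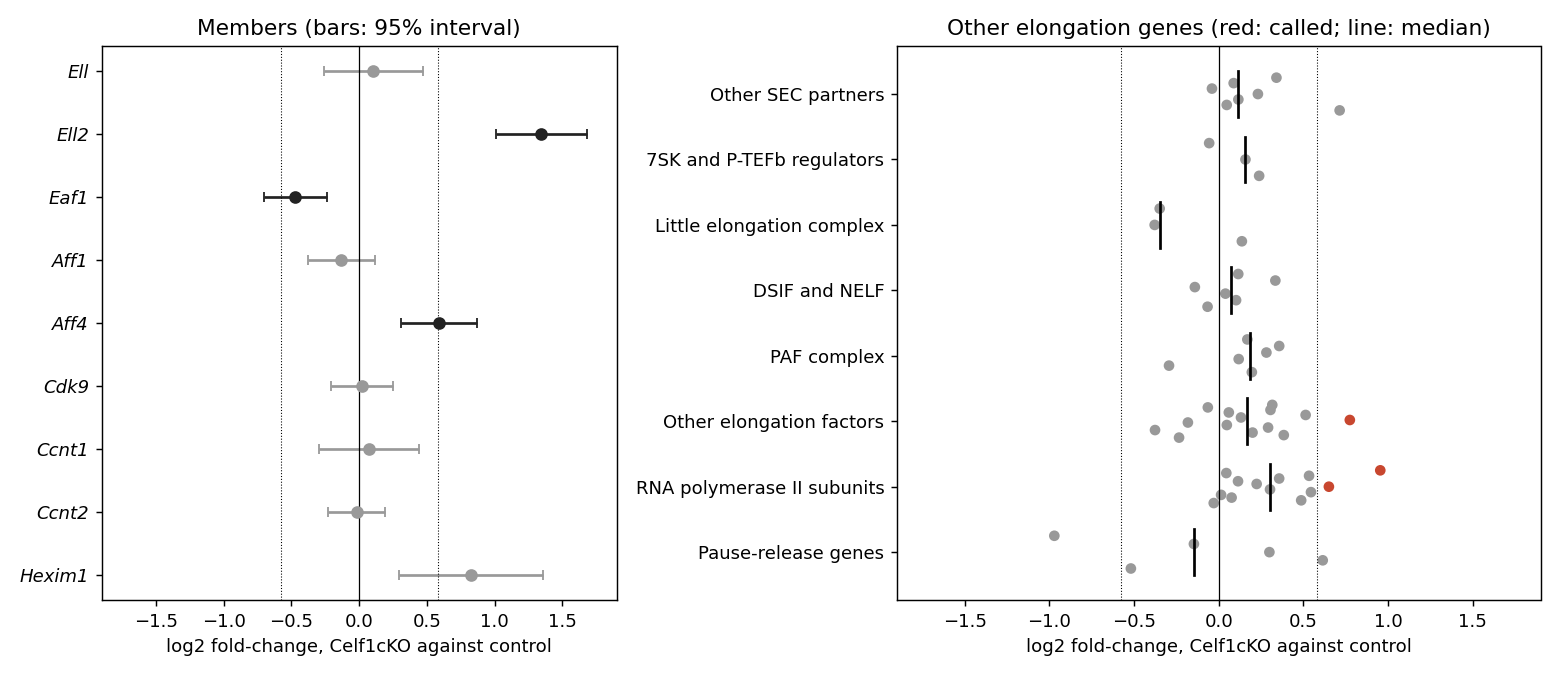
Left, log2 fold-change of the 9 members in Celf1cKO against control lenses (horizontal axis) with 95% intervals, in black where the adjusted p from limma was under 0.05 and in grey otherwise. Right, the same quantity for the 57 genes of the other lists, 1 point per gene, with called genes in red. The median of each list is a vertical line. These lists hold genes of transcription elongation and 5 immediate early genes known for rapid pause release. The dotted lines mark 0.58 in both directions. Ell2 and Aff4 lie past the upper line with an adjusted p under 0.05, and 3 genes of the other lists are called.

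Levels of different genes were compared per kilobase of exon. In controls the order of the means, in CPM per kilobase, was Eaf1 with 43.2 ± 4.95, Ell2 with 36.4 ± 4.01, Cdk9 with 10.8 ± 1.02, Aff4 with 8.27 ± 1.26, Aff1 with 8.18 ± 0.798, Hexim1 with 4.48 ± 0.470, Ccnt2 with 4.22 ± 0.278, Ell with 3.05 ± 0.313 and Ccnt1 with 3.01 ± 0.328 (SD, n = 3 each). The ranges over libraries overlapped between the neighbours Eaf1 and Ell2, Aff4 and Aff1, Hexim1 and Ccnt2, and Ell and Ccnt1. In Celf1cKO lenses Ell2 came first, with a mean of 92.9 CPM per kilobase and libraries between 76.2 and 105, and Eaf1 came next, at 31.0 ± 0.365, with no overlap. Aff4 followed with 12.3 ± 0.379, ahead of Cdk9 with 10.9 ± 0.325, and Hexim1 came after them with 8.19 ± 2.38 CPM per kilobase, with a range of 5.46 to 9.86 that overlapped that of Aff1, 6.76 to 7.92. The first place of Eaf1 in controls depended on the length used: per kilobase of the principal transcript, a length chosen after seeing the data, Ell2 averaged 81.6 CPM and Eaf1 48.2 CPM there. By that length Cdk9 also stood above Aff4 in Celf1cKO lenses, at 29.1 against 16.4 CPM per kilobase, and Aff1 above Hexim1, at 8.49 against 8.19.

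Ratios between members within a library do not depend on how libraries were scaled, and 7 of them were compared. Of these, 5 did not overlap between the groups: the log2 ratios of Ell2 to Eaf1, to Cdk9, to Ell and to Aff4, and that of Aff1 to Aff4. Ell2, whose own groups did not overlap, is in 4 of these 5, so they are not separate observations, and no share over ratios of other genes was computed. The log2 ratio of Ell2 to Eaf1 differed most, at 0.60, 0.50 and 0.68 in control libraries and 2.16, 2.60 and 2.48 in Celf1cKO libraries. All Celf1cKO values were above all controls, and the difference of 1.82 is a 3.52-fold shift of the pair. The differences were 1.32 for Ell2 to Cdk9, 1.24 for Ell2 to Ell and 0.76 for Ell2 to Aff4. The exact permutation p was 0.1 for all 5, the smallest this design allows, and 0.14 after Benjamini-Hochberg adjustment over the 7 ratios. The ratio of the inhibitor Hexim1 to Cdk9 was higher by 0.80 on average, but its groups overlapped through Celf1cKO library 1 (exact permutation p = 0.2, adjusted 0.233). The log2 ratio of Ccnt1 to Ccnt2 differed by 0.09 (exact permutation p = 0.6).

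**Figure D4:**
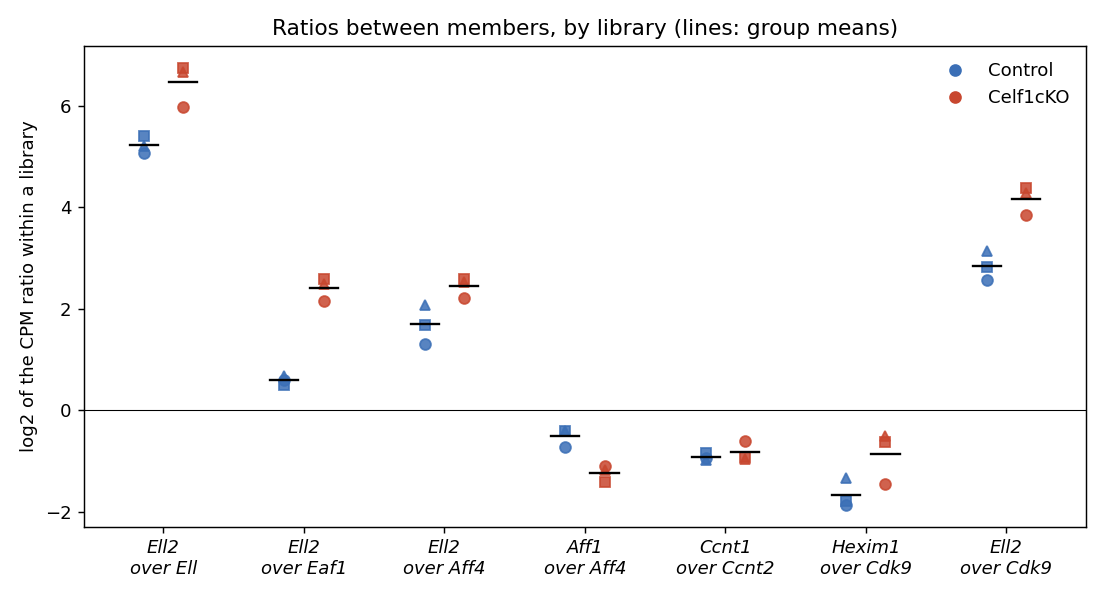
Log2 of the CPM ratio between pairs of members within each library (vertical axis), for control (blue) and Celf1cKO (red) libraries, with group means as black lines and symbols for library number as in the plot by library. The log2 ratio of Ell2 to Eaf1 averages 0.59 in controls and 2.41 in Celf1cKO, and the groups overlap for Ccnt1 to Ccnt2 and for Hexim1 to Cdk9.

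Other genes of the pathway, and genes known for rapid pause release, were described by 8 lists. Of their 59 genes, 57 had a row. Of these, 51 lay above the level cut-off, 3 were called higher and 0 lower, close to the 6.21% called higher among expressed genes. The median log2 fold-change was 0.13, beside 0.01 for expressed genes. Among the 7 further partners of ELL and the complex none was called, but only 4 of them lay above the level cut-off. The YEATS-domain proteins Mllt1 and Mllt3 averaged 5.18 and 3.99 log2 CPM in controls and 5.14 and 4.08 in Celf1cKO. Eaf2, the paralog of Eaf1, averaged -0.65 and -0.42 log2 CPM, below the level cut-off, and was singled out after its values were seen.

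None of the 3 other regulators on the 7SK RNA was called. Larp7, which protects 7SK, had a log2 fold-change of 0.16, Mepce, which caps it, of -0.06, and Hexim2, the paralog of Hexim1, of 0.24. The little elongation complex shares ELL proteins but acts on small nuclear RNA genes, and none of its 3 members was called, with log2 fold-changes of 0.14 for Ice1, -0.38 for Ice2 and -0.35 for Zc3h8.

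Of the 6 genes of DSIF and NELF, which establish the pause, 0 were called, and their median log2 fold-change was 0.07. Supt5, Nelfcd and Nelfb, the highest of them by log2 CPM, had log2 fold-changes of 0.12, 0.04 and 0.10. Of the 6 genes of the PAF complex, which travels with the elongating polymerase, 0 were called as well, with log2 fold-changes of -0.29 for Ctr9, 0.28 for Paf1 and 0.12 for Leo1.

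The called genes were a general elongation factor and 2 subunits of the polymerase. Iws1, which works with Supt6 during elongation, averaged 5.001 ± 0.04 log2 CPM in controls and 5.77 ± 0.25 in Celf1cKO (SD, n = 3 each), a log2 fold-change of 0.77 (SE 0.133, adjusted p = 0.0162). It was the single called gene among 14 other elongation factors, of which 13 lay above the level cut-off. Elob, Supt6 and Ssrp1, the uncalled ones with the highest log2 CPM, had log2 fold-changes of 0.29, 0.06 and 0.13. Supt16, singled out after its values were seen, had a log2 fold-change of 0.51 and an adjusted p of 0.0186 (limma). Its groups did not overlap, but it was short of the fold-change cut-off. Polr2m, also known as Gdown1, which associates with the paused polymerase, averaged 5.84 ± 0.11 and 6.79 ± 0.11 log2 CPM (SD, n = 3 each), a log2 fold-change of 0.95 (SE 0.0961, adjusted p = 0.00888). Polr2g, a subunit of the stalk, averaged 5.40 ± 0.09 and 6.05 ± 0.15 log2 CPM (SD, n = 3 each), a log2 fold-change of 0.65 (SE 0.105, adjusted p = 0.0146, all limma with Benjamini-Hochberg adjustment). For all 3 called genes the groups did not overlap. The 13 subunits had a median log2 fold-change of 0.30, beside 0.01 for expressed genes, with 2 called higher and 11 not called, where 6.21% of expressed genes were called higher. The uncalled subunits with the highest log2 CPM were Polr2a, Polr2b and Polr2j, with log2 fold-changes of -0.03, 0.49 and 0.36 and adjusted p of 0.917, 0.0230 and 0.0565 (limma with Benjamini-Hochberg adjustment). Polr2e, singled out after its values were seen, had a log2 fold-change of 0.54 and an adjusted p of 0.0345 (limma). Like Polr2b, it did not overlap between the groups and was short of the fold-change cut-off. No elongation factor of that list was called without any 1 of control libraries 1, 2 and 3 or Celf1cKO library 3, and no subunit without control library 2 or Celf1cKO library 3, while 1 subunit was called without Celf1cKO library 2.

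Of 7 immediate early and heat shock genes known for rapid pause release, 5 had a row, all of them immediate early genes, and none was called. Of these 5, Fos and Myc, named after their values were seen, had mean levels below the cut-off of 1 log2 CPM and could not be called, with log2 fold-changes of 0.61 and -0.97 and adjusted p of 0.244 and 0.0980 (limma with Benjamini-Hochberg adjustment). The log2 fold-changes of Jun, Egr1 and Ier2, which lay above that level, were -0.15, -0.52 and 0.30, with wide 95% intervals of -0.52 to 0.23, -1.82 to 0.79 and -0.47 to 1.07.

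The genes whose profile over the 6 libraries was most like that of Ell2 were Gnl3l, Kif3c and Vat1l. Likeness was measured as the root mean square distance between log2 CPM profiles after centring, which was 0.0537, 0.0705 and 0.0724 for them and 0.711 in the median over expressed genes. Gnl3l, a GTP-binding protein of the nucleolus, was at 5.45, 5.53 and 5.79 log2 CPM in controls and 6.69, 7.17 and 7.02 in Celf1cKO. Like Ell2, all 3 genes were lowest in control library 1 and highest in Celf1cKO library 2. Their log2 fold-changes were 1.37, 1.33 and 1.46. The choice by likeness to Ell2 largely fixes both these fold-changes and the shared pattern over libraries.

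**Figure D5:**
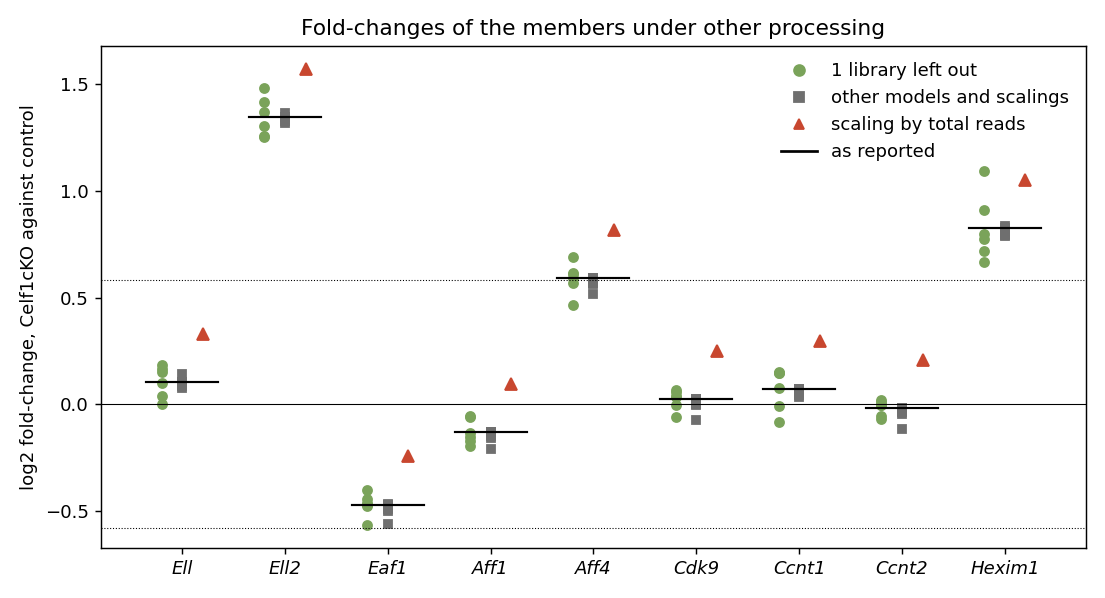
Log2 fold-change of each member in Celf1cKO against control lenses (vertical axis) as reported (black line), with each library left out in turn (green), under other models and scalings (grey) and with libraries scaled by total reads (red), and with dotted lines at 0.58 in both directions. Ell2 stays between 1.25 and 1.57, Aff4 falls on both sides of 0.58, and scaling by total reads gives every member but Hexim1 its highest value.

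Scaling the libraries by their total reads, in place of the scaling in the deposited values, moved the median log2 fold-change of all expressed genes from 0.01 to 0.23. The rescaling adds nearly the same amount to every gene and so cannot change the order of the members, with Ell2 at 1.57, Hexim1 at 1.05, Aff4 at 0.82 and Eaf1 at -0.24, while Aff1 and Ccnt2 turned from below 0 to 0.10 and 0.21, both below the shift. These scalings are compared in the plot of fold-changes under other processing.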

How the data were processed

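The authors trimmed strand-specific paired-end reads, aligned them to GRCm38.p6 with STAR 2.7.8a, kept uniquely mapped reads, counted them with featureCounts 2.0.0 (names and versions from the methods and the submitters' processing notes), removed genes of very low CPM and normalized with edgeR. They deposited log2 CPM per library with a small prior count. The deposited table also holds the authors' own comparison, with log2 fold-change, average log2 CPM, F statistic (a score), p-value and FDR, and these columns were not used. Whole reads were recovered for 100% of values (tolerance 0.05 reads), giving the depths.

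Samples were grouped by their labels. Groups were compared on the deposited log2 CPM with limma 3.58.1 in R 4.3.3 (variance trend, no block, two-sided), with Benjamini-Hochberg adjustment over all genes, and single ratios and shares by exact permutation tests. The fit was tested on simulated data. The reported fits and exact tests were unpaired, and pairing by the replicate numbers of the labels entered only as the replicate block, an alternative. Deviations from the group means correlated between same-numbered libraries (0.332, 0.415 and 0.334 over expressed genes). Correlations between libraries of different number were not computed and the study describes no pairing, so whether the numbers mark pairs is unclear. Gene models came from GENCODE M21, which held 13928 of the identifiers. Python 3.11.15 with matplotlib 3.10.9 drew the figures.

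The rule for named genes covered the 10 members, Celf1, called genes of the 8 lists with up to 3 uncalled genes of each by level, and the 3 genes nearest to Ell2. One gene that this rule names is not reported here. Members and lists were chosen with earlier results of these data known. Alternatives were robust empirical Bayes, the replicate block, a fit without the variance trend, log2(CPM + 1), median centring, quantile normalization, total reads, scaling without crystallin genes, limma voom on recovered reads, only genes above 1 log2 CPM, transcript length and each library left out. A fold-change cut-off of 0.5 and the principal transcript length were added after seeing the data. The ratio of Ell2 to Ell3 and the identity of the ELL proteins were not computed.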

Additional observations from a re-analysis of the deposited data

How the results depend on the processing

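Ell2 was called under all 10 other models and scalings, with log2 fold-changes of 1.32 to 1.57, and the cause of the changes below was not tested. Over all genes 1010 were called, 412 without the variance trend, 1846 with scaling by total reads and 1255 with the replicate block, of which 975 were shared. With each library left out the number ran from 1 (without control library 2 or Celf1cKO library 3) to 1879 (without Celf1cKO library 1). Members called numbered 2, and 1 without the variance trend, with median centring, with quantile normalization and with scaling without crystallin genes, and 0 to 3 with a library left out. The replicate block raised Hexim1 (log2 fold-change 0.83) past the threshold and changed no other member's call. Hexim1 was also past it among only genes above 1 log2 CPM (0.83) and with total reads (1.05). Aff4 (0.59) and Eaf1 (-0.47) lost an adjusted p under 0.05 without the variance trend, as did Eaf1 with total reads (-0.24). Small values changed sign: Aff1 (0.10) and Ccnt2 (0.21) with total reads, and Cdk9 with median centring (-0.0055) and quantile normalization (-0.073). With a library left out, log2 fold-changes ran from 1.25 to 1.48 for Ell2, 0.47 to 0.69 for Aff4, 0.67 to 1.09 for Hexim1, -0.57 to -0.40 for Eaf1, -0.0586 to 0.0685 for Cdk9, -0.0831 to 0.152 for Ccnt1 and -0.0714 to 0.0217 for Ccnt2. With total reads, 1 PAF gene, 3 other elongation factors and 6 polymerase subunits were called. Without the variance trend these last 2 counts were 0 and 1, with quantile normalization 1 subunit was called, and with a library left out the lowest counts were 0 for both and the highest 1 and 3. The difference in the share of Ell2 was 2.36 percentage points with the longest and 2.04 with the principal transcript. With 3 libraries a group, an exact permutation p cannot fall below 0.1.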
